A study of Drosophila melanogaster with 36 samples.

Results

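The 10 genes described here encode Jonah and trypsin serine proteases, namely Jon25Bii, Jon44E, Jon65Ai, Jon65Aiii, Jon66Ci, Jon66Cii, Jon74E, alphaTry, betaTry and epsilonTry. They were taken by gene symbol from the array annotation, and each of the 10 was measured by 1 probe set, among 11981 genes named on the array. RNA came from the abdominal fat body of adult Drosophila melanogaster males, dissected and pooled from 10 flies for each array. The dnClk course had 12 arrays, taken every 4 h over 2 days, and the WT course had 24 arrays, taken every 2 h over the same span. WT flies were w; UAS-dnClk/+, so that they carried the transgene without a stated driver; the labels name no driver for the dnClk flies. Before the first collection all flies had spent 5 days at 25 °C under a 12 h light, 12 h dark cycle. Each time point was a single array, so p-values rest on the spread of the arrays around a fitted curve or mean.

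Jonah and trypsin genes encode secreted enzymes that cut dietary protein in the midgut. Trypsins cut after basic residues, and the Jonah proteins form a chymotrypsin-like group. Both families expanded by local duplication, and their best known site of expression in the adult fly is the enterocyte, a cell type that a clean fat body dissection would leave behind. dnClk is a dominant negative form of Clock, the transcription factor that with cycle drives the daily expression of period and timeless. The comparisons below ask how much these transcripts varied between arrays, whether they varied together, whether their level followed the hour, and whether they differed between the genotypes.

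Several of these genes lie side by side. In the Release 6 assembly epsilonTry lies between alphaTry and betaTry on 2R, Jon66Ci lies next to Jon66Cii on 3L, and Jon65Aiii lies between Jon65Aiv and Jon65Aii on 3L. Copies of this kind are similar in sequence, and how far a probe set reads its neighbour's transcript was not tested.

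Of the 10 proteases, 4 were bright enough to be tested: alphaTry, betaTry, Jon65Aiii and Jon74E. Testing covered the brightest 60% of probe sets, with mean intensities of 34.6 or more. The other 6 were dim, with mean intensities over all arrays between 4.66 for Jon65Ai and 26.9 for epsilonTry, so their values are given as descriptions. A probe set can pass this filter through a few arrays in which it is high, so counts below refer to the 4 tested genes and not to the family.

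alphaTry, a trypsin, ranged in dnClk arrays between 64.3 at ZT12 and 1128.6 at ZT36 with a median of 401.9. In WT arrays its intensity lay between 114.2 at ZT44 and 2215 at ZT8 with a median of 513.7 (ZT counts hours after the first lights on, and intensities are MAS5 units). The genotypes overlapped over most of their ranges, and the highest array was 17.6 times as bright as the lowest in dnClk and 19.4 times in WT. betaTry, its close relative, ranged in dnClk arrays between 12.9 at ZT12 and 636.3 at ZT32 with a median of 214.5. In WT arrays betaTry lay between 15.7 at ZT2 and 1366.9 at ZT8 with a median of 285.7. The lowest dnClk array was the ZT12 array for both trypsins, and the highest WT array was the ZT8 array for both.

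Jon65Aiii, a Jonah protease of the 65A cluster, ranged in dnClk arrays between 38.3 at ZT12 and 643.6 at ZT44 with a median of 191.95. In WT arrays Jon65Aiii lay between 31 at ZT44 and 830.9 at ZT8 with a median of 248.15. Its low dnClk array and its high WT array were the same ones as for the trypsins. Jon74E, a Jonah protease whose gene has no other named Jonah gene beside it, ranged in dnClk arrays between 24.4 at ZT12 and 217.8 at ZT0 with a median of 98.6. In WT arrays Jon74E lay between 13 at ZT2 and 1445.2 at ZT8 with a median of 150.8. For Jon74E 11 of 24 WT arrays lay above every dnClk array, against 6 for alphaTry, 7 for betaTry and 2 for Jon65Aiii, and no dnClk array lay above every WT array for any of the 4.

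**Figure D1:**
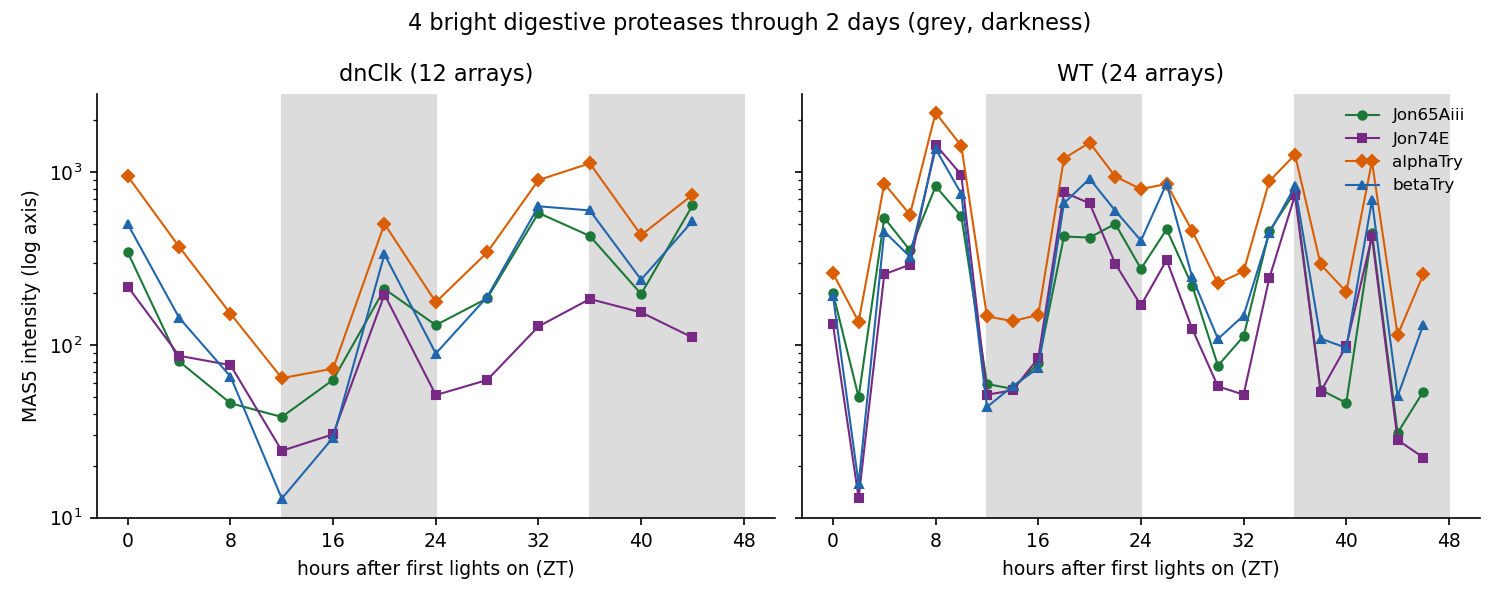
MAS5 intensity on a log axis against hours after the first lights on (ZT) for Jon65Aiii, Jon74E, alphaTry and betaTry, with 12 dnClk arrays on the left and 24 WT arrays on the right; each point is 1 array and grey marks darkness. The 4 lines move up and down together, with a common low point at ZT12 in dnClk and a common high point at ZT8 in WT.

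On the log2(intensity + 16) scale the standard deviation between arrays was 1.31 in dnClk and 1.28 in WT for alphaTry. It was 1.52 in dnClk and 1.52 in WT for betaTry, and 1.24 in dnClk and 1.39 in WT for Jon65Aiii. For Jon74E it was 0.85 in dnClk and 1.60 in WT. The median standard deviation over all tested probe sets was 0.23 in dnClk and 0.36 in WT, so the 4 proteases varied more than most transcripts in both courses. Their spreads exceeded those of 92.7% to 99.5% of tested probe sets in dnClk and of 93.5% to 96.7% in WT.

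The spread itself was compared between genotypes through the absolute deviation of each array from its genotype's median, with limma across all tested probe sets and Benjamini-Hochberg adjustment. None of the 4 proteases passed at an adjusted p of 0.05, beside 0.133% of all tested probe sets called wider and 0.337% called narrower in dnClk; at an unadjusted p under 0.05 the count was 1 of 4, beside 3012 of all 11261 probe sets. For Jon74E the mean scaled deviation was 0.73 in dnClk and 1.38 in WT, a difference of -0.65 with a 95% interval between -1.16 and -0.14 (p = 0.0142, limma adjusted p = 0.127). For alphaTry the difference was -0.09, with an interval between -0.53 and 0.35. This test detects few differences at these numbers of arrays, so the missed threshold does not show that the spreads were alike.

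**Figure D2:**
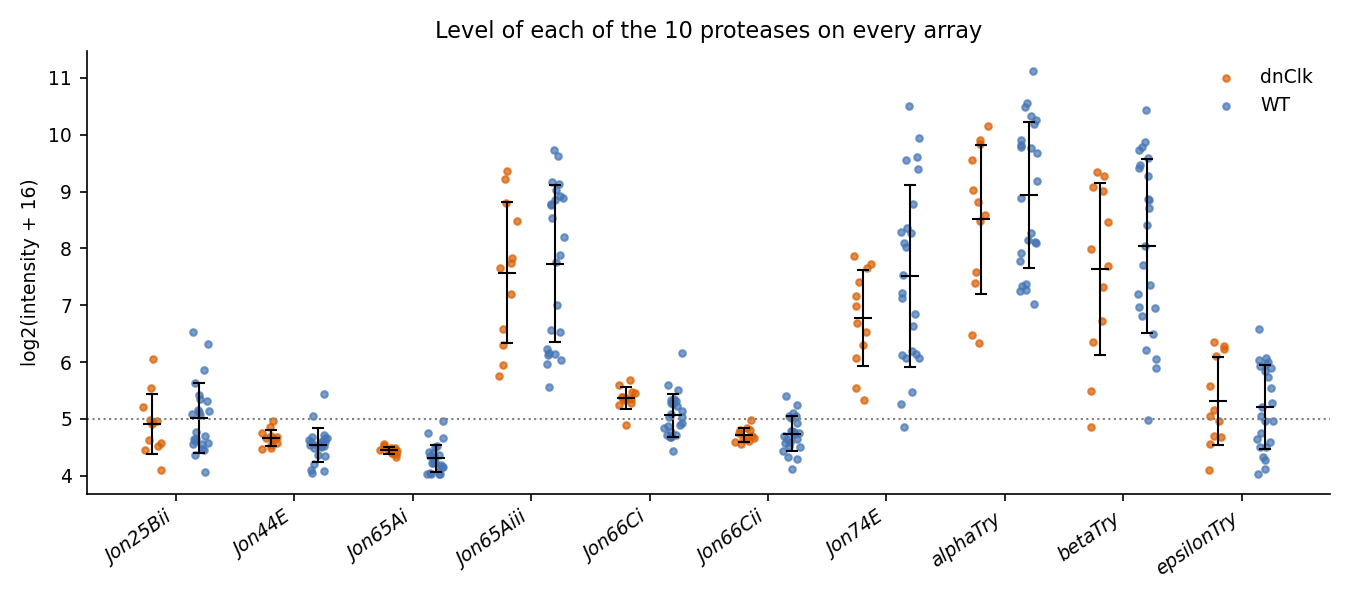
Level of each of the 10 proteases as log2(intensity + 16) on every array, dnClk (orange) to the left of WT (blue), with mean and SD as black bars (n = 12 and n = 24); the dotted line marks an intensity of 16. Jon65Aiii, Jon74E, alphaTry and betaTry are spread over several log2 units in both genotypes, whereas Jon44E, Jon65Ai and Jon66Cii stay close to the dotted line or below it.

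The 4 tested proteases were high and low on the same arrays. All 4 were above their own genotype's median in the same 6 of 12 dnClk arrays, at ZT0, ZT20, ZT32, ZT36, ZT40 and ZT44. All 4 were likewise above their median in the same 12 of 24 WT arrays, and no array of either genotype was above the median for some of the 4 and below it for others. The 12 WT arrays were those at ZT4, ZT6, ZT8, ZT10, ZT18, ZT20, ZT22, ZT24, ZT26, ZT34, ZT36 and ZT42. These hours fall in light and in darkness on both days.

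Pearson correlations between the 4 proteases, over 12 dnClk arrays, had a median of 0.901 and lay between 0.721 and 0.989. Over 24 WT arrays the median was 0.938 and the range lay between 0.920 and 0.973. Both genes of a pair are read from the same RNA pool and hybridisation, and the values are given as a description. Among pairs of tested genes, 2.32% correlated above the median of the 4 proteases in dnClk and 1.29% did so in WT. The closest pair was alphaTry with betaTry, at 0.989 in dnClk and 0.973 in WT. After the mean levels of testis and accessory gland markers had been removed, the median was 0.891 in dnClk and 0.923 in WT.

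The 6 dim proteases differed in their correlation with these 4. epsilonTry, the trypsin between alphaTry and betaTry, correlated with the 4 tested genes at 0.825 to 0.957 in dnClk and at 0.883 to 0.945 in WT. Its intensity lay between 1.1 at ZT12 and 65.6 at ZT36 in dnClk arrays, and between 0.4 at ZT2 and 80.2 at ZT8 in WT arrays, so its extremes fell on the same arrays as those of alphaTry or betaTry. Jon25Bii, a Jonah protease of the 25B cluster, correlated at 0.624 to 0.793 in dnClk and at 0.656 to 0.730 in WT.

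Jon65Ai, Jon66Cii and Jon44E lay so near the floor that their correlations do not show whether the transcripts followed the bright proteases. Jon65Ai, with intensities of 4.1 to 7.5 in dnClk arrays and 0.3 to 15 in WT arrays, correlated with them at 0.07 to 0.11 in dnClk and at 0.06 to 0.22 in WT. Jon66Cii correlated at 0.03 to 0.42 in dnClk and at 0.05 to 0.15 in WT. By median intensity Jon66Ci was not dimmer than Jon25Bii. Its median was 25.7 in dnClk and 16.7 in WT, against 14.4 in each genotype for Jon25Bii. Its WT mean was slightly lower, at 18.7 against 19.7. It also varied less, with a log2 SD of 0.20 in dnClk and 0.38 in WT, against 0.53 and 0.61 for Jon25Bii. Jon66Ci had low correlations with the bright proteases, at -0.21 to 0.12 in dnClk and at 0.01 to 0.08 in WT. Why it differed from Jon25Bii was not tested. Jon44E correlated at -0.80 to -0.73 in dnClk and at -0.23 to -0.07 in WT. The intensities of Jon44E lay between 6.2 and 15.2 in dnClk arrays and between 0.6 and 27.3 in WT arrays. Over all 45 pairs of the 10 genes the median correlation was 0.254 in dnClk and 0.143 in WT.

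**Figure D3:**
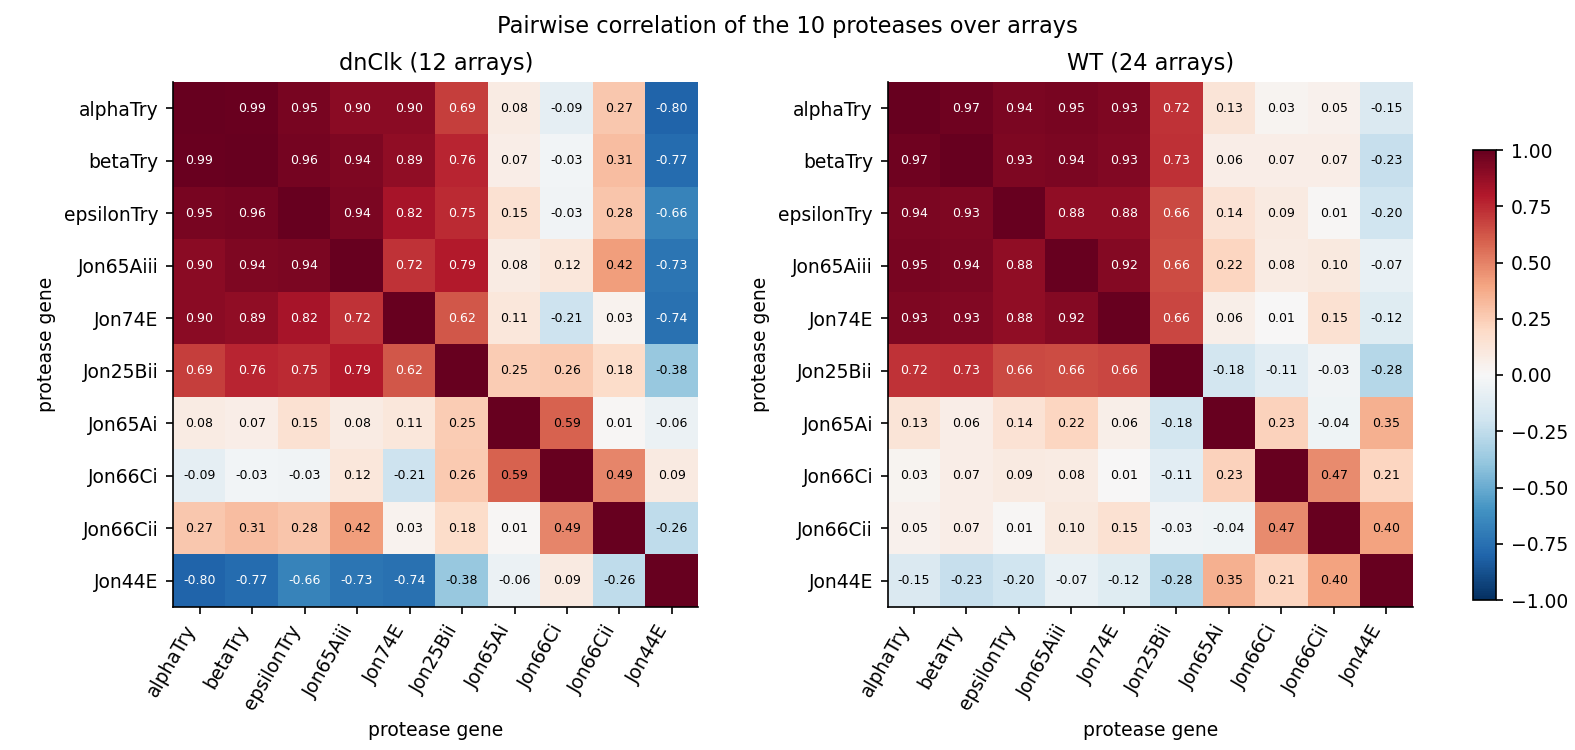
Pearson correlation between each pair of the 10 proteases over 12 dnClk arrays (left) and 24 WT arrays (right), red for positive and blue for negative. alphaTry, betaTry, epsilonTry, Jon65Aiii and Jon74E form a block of high values in both panels, Jon25Bii joins it at 0.62 to 0.79, and Jon44E is negative against this block in dnClk.

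No daily rhythm was called in the proteases. A 24 h cosine and sine explained 6.05% to 7.30% of the variance of the 4 proteases in dnClk and 1.72% to 7.33% in WT. None was called rhythmic in dnClk, where 0.0355% of all tested probe sets passed, and none in WT, where 0.648% passed (limma, adjusted p between 0.912 and 0.925 in dnClk and between 0.81 and 0.96 in WT, with no unadjusted p under 0.05). The fitted difference in rhythm between genotypes was not called for any of the 4 (limma adjusted p 0.976 to 0.979), beside a background of 0%, where 177 probe sets had an unadjusted p under 0.05. The fitted WT amplitude was 0.52 for Jon65Aiii, 0.26 for alphaTry and 0.28 for betaTry on the log2 scale. On the 12 times shared with the dnClk course it was 1.01 for Jon65Aiii, 0.77 for alphaTry and 0.84 for betaTry, again not called (limma adjusted p 0.662 to 0.847 for these 3), so the size of the amplitude was poorly determined.

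Arrays taken at the same clock hour on the 2 days differed no less, on average, than arrays of different hours and days. The absolute difference between the days averaged 1.29 for Jon74E to 2.20 for betaTry in dnClk (6 clock hours), and 1.64 for alphaTry to 2.06 for Jon74E in WT (12 clock hours), all on the log2 scale. Between different hours of the 2 days it averaged 0.93 for Jon74E to 1.83 for betaTry in dnClk (30 pairs), and 1.46 for alphaTry to 1.85 for Jon74E in WT (132 pairs), and for each of the 4 genes in each genotype the same-hour value was the higher one. The 4 genes moved together over arrays, so their agreement here does not count as 4 separate results. At clock hour 8, Jon74E had 1445.2 on day 1 and 51.6 on day 2 in WT arrays, a log2 difference of 4.43. At clock hour 12, alphaTry had 64.3 on day 1 and 1128.6 on day 2 in dnClk arrays, a log2 difference of 3.83.

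Single clock hours differed in both directions. Day 2 was higher at 3 to 5 of 6 clock hours in dnClk and at 4 to 6 of 12 in WT, depending on the gene. The fitted shift of day 2 against day 1 was positive for all 4 genes in dnClk, at 0.32 to 1.51, and negative for all 4 in WT, at -0.81 to -0.10. Since the 4 genes moved together, these shared signs are not 4 separate results. No shift between days passed in dnClk, where 1.57% of tested probe sets did, or in WT, where 2.34% did. The nearest was Jon65Aiii in dnClk, at 1.51 ± 0.54 (SE) above day 1 (p = 0.0188, limma adjusted p = 0.203) and higher on day 2 at 5 of 6 hours, followed by betaTry at 1.43 ± 0.75 (limma adjusted p = 0.318) and alphaTry at 1.12 ± 0.68 (limma adjusted p = 0.35) in dnClk. The difference in this shift between genotypes was not tested.

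**Figure D4:**
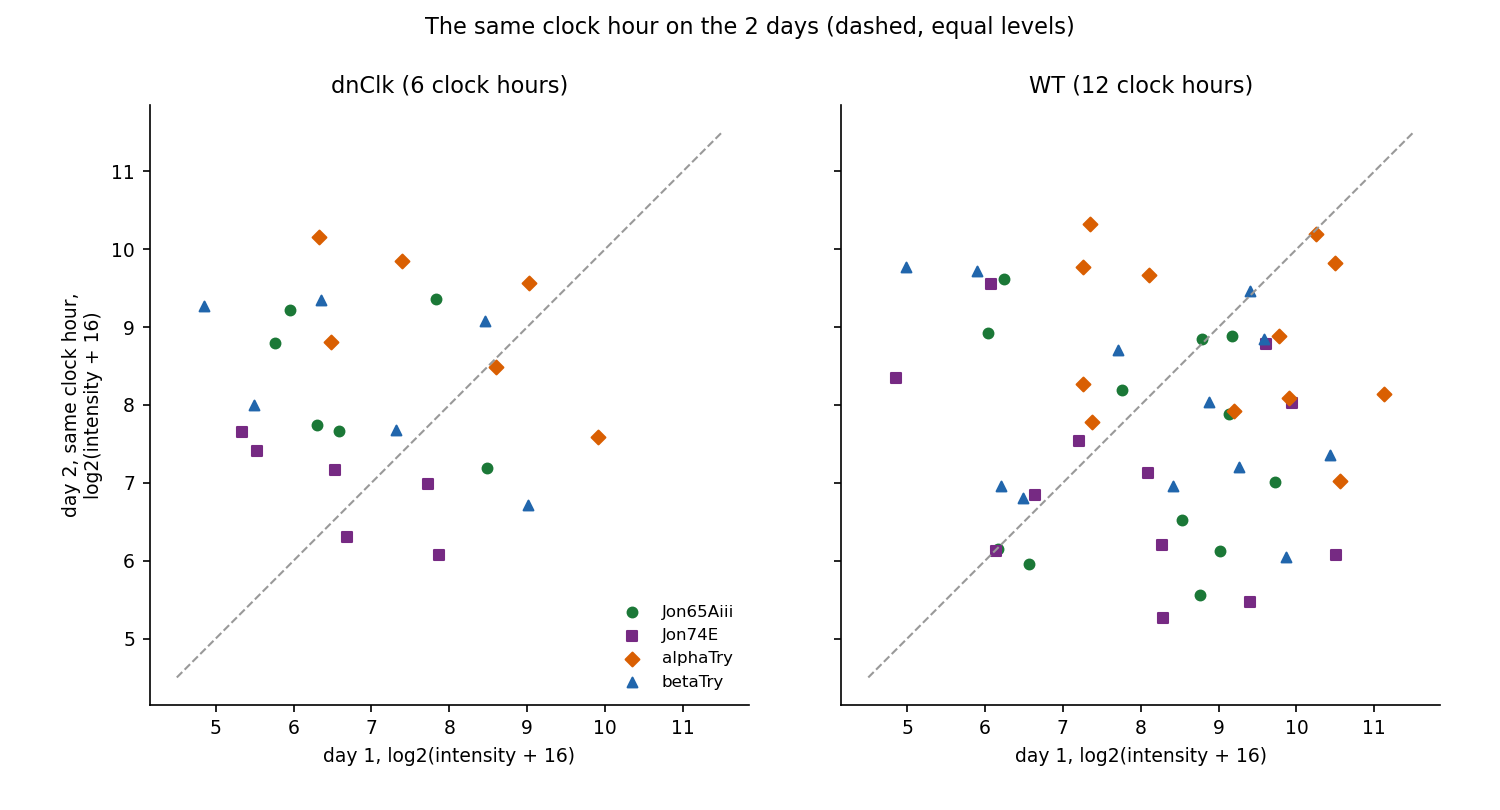
Level on day 2 against level on day 1 at the same clock hour, as log2(intensity + 16), for Jon65Aiii, Jon74E, alphaTry and betaTry, with 6 clock hours in dnClk (left) and 12 in WT (right); the dashed line marks equal levels. Points lie far from the line on both sides in WT, and the mean absolute distance between days is 1.29 to 2.20 in dnClk and 1.64 to 2.06 in WT.

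Between genotypes none of the 4 proteases passed the test for level, although 39.2% of all tested probe sets were called higher and 17.7% lower in dnClk (limma with Benjamini-Hochberg adjustment). alphaTry averaged 8.52 ± 1.31 in dnClk and 8.94 ± 1.28 in WT (log2 level, SD, n = 12 and n = 24). The difference was -0.42, which is 0.745 of the WT level, with a 95% interval between 0.389 and 1.43 (limma adjusted p = 0.428). betaTry differed by -0.41 with an interval between 0.35 and 1.62 of the WT level, and Jon65Aiii by -0.16 with an interval between 0.463 and 1.74. Jon74E had the lowest ratio, 0.597 with an interval between 0.295 and 1.21 (limma adjusted p = 0.205). A missed threshold with intervals this wide does not show equal levels. The median difference of all tested probe sets was 0.26.

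Scaling matters for this comparison. The genotypes did not overlap in the bacterial hybridisation controls, at 10.0 to 10.7 in dnClk and 11.7 to 12.8 in WT (mean log2), or in the log2 ratio of 3′ to 5′ Act5C control signal, at 0.94 to 2.12 in dnClk and 2.68 to 4.64 in WT. Genotype and array processing therefore cannot be told apart. With arrays scaled to the hybridisation controls all 4 proteases were called higher in dnClk, by 1.025 to 1.687 on the log2 scale, as were 11086 of the 11261 tested probe sets, whose median difference then was 2.00. With arrays centred on their medians, Jon74E was called lower, at -1.135 (limma adjusted p = 0.0413), as were 3777 of the 11261 tested probe sets. With the midgut marker mean as a covariate the 4 differences were 0.07 for Jon65Aiii, 0.28 for Jon74E, 0.58 for alphaTry and 0.91 for betaTry, none called (limma adjusted p 0.828 to 0.987). Their sign turned there, but the marker mean was 8.95 to 9.30 in dnClk and 6.25 to 8.13 in WT. Without overlap this covariate can hardly be separated from genotype, so these 4 values are poorly determined. With testis and accessory gland means as covariates they were -0.864, -1.345, -1.002 and -0.982 in the same order, none called (limma adjusted p 0.0796 to 0.299). The direction of the level difference is therefore not settled. Correlations and hours were compared within a genotype.

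Among the dim proteases, Jon66Ci was called higher in dnClk when all probe sets were tested, by 0.31 (limma adjusted p = 0.0264). In the main fit, which did not hold Jon66Ci, 39.2% of tested probe sets were called higher and the median difference was 0.26. The share called over all probe sets is not given here, so the call is not read as setting the gene apart. Its intensities were 13.6 to 35.2 in dnClk arrays and 5.6 to 55.6 in WT arrays. These ranges overlapped and sat near the floor. With all probe sets tested, epsilonTry had a called WT slope on testis markers, at 0.24 (limma adjusted p = 0.00767). Its WT slope on fat body markers was called too, at -1.09 (limma adjusted p = 0.00607). In the main fit 19.3% of tested probe sets had a called positive testis slope and 37.3% a called negative fat body slope. betaTry lost its testis call with all probe sets tested (limma adjusted p = 0.0578).

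No relation between the proteases and markers of the midgut wall was called within a genotype. The 6 tested genes of this list include Ssk, mesh, Tsp2A and hoka, which build the smooth septate junctions of the gut epithelium, mex1, a gene of the absorptive midgut cells, and cad, a posterior gut transcription factor. The summed intensity of the 7 list genes on the array was 3592 to 4854 in dnClk and 785.5 to 2371 in WT, without overlap, and GATAe was dim. Of the 6, 5 were called higher in dnClk, beside 39.2% of all tested probe sets, in the comparison that array processing also separates. Tsp2A had intensities of 768.1 to 1027.7 in dnClk arrays and 18.4 to 113.1 in WT arrays, and mesh had 455.2 to 981.8 in dnClk arrays and 3.3 to 128.6 in WT arrays, so their WT values lay near the floor. In neither genotype did a protease have a called slope on the mean of these markers (limma adjusted p 0.98 to 0.981 in dnClk and 0.838 to 1 in WT). In WT, 0.826% of tested probe sets had a called positive slope on it and in dnClk 0% did. The standard deviation of the marker mean was 0.12 in dnClk and 0.37 in WT, far below that of the proteases, so the slopes were poorly determined, with standard errors of 1.99 to 3.57 in dnClk and 0.70 to 0.87 in WT. Over all 24 WT arrays the slopes were -0.48 for betaTry to -0.0003 for Jon65Aiii. Without the WT ZT12 array, where the marker mean was highest at 8.13, the WT slopes were 0.57 for Jon74E to 1.23 for Jon65Aiii, none called. The sign of the WT slopes thus turned when this single array was left out. The markers also differed from each other. In WT the median correlation with the 4 proteases was 0.51 for mex1, -0.46 for hoka and -0.56 for Ssk. In WT cad, mesh and Tsp2A had called slopes on the mean that they are part of, and mex1, hoka and Ssk did not. ZnT35C, a gene of the Malpighian tubule list, also had a called WT slope on it, at 2.63 (limma adjusted p = 0.00656). How far this mean measures the midgut wall alone was not tested.

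Testis RNA also varied between arrays. The summed intensity of 23 testis markers was 2291 to 20465 in dnClk arrays and 412.1 to 39567 in WT arrays. The slopes of the 4 proteases on the mean testis marker level were -0.02 to 0.18 in dnClk, none called beside 14.4% of all tested probe sets with a called positive slope and 12.3% with a negative one, and 0.36 to 0.45 in WT, where all 4 were called (limma adjusted p 0.00556 to 0.0441) beside 19.3% with a called positive slope and 27.2% with a negative one. The 4 WT calls are not separate results, since the 4 genes moved together over arrays. The slopes were not called different between genotypes (limma adjusted p 0.461 to 0.809, beside 0.302% of all tested probe sets). The WT calls were fragile: 1 of 4 was called without the ZT36 array, which is WT replicate 19, 2 without the ZT8, ZT18 or ZT46 array, and 1 with arrays centred on their medians. Removing the testis and accessory gland means left a standard deviation of 1.24 in dnClk and 1.18 in WT for alphaTry.

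Fat body markers, which include apolpp, a lipid carrier, and FASN1, a fatty acid synthase, were present on every array, with a summed intensity of 10744 to 13163 in dnClk and 27573 to 60540 in WT for 14 genes. They ran against the proteases in WT, where the slopes were -2.27 to -1.61, all 4 called (limma adjusted p 0.00447 to 0.0308) beside 37.3% of all tested probe sets with a called negative slope and 28.1% with a positive one. In dnClk the slopes were 0.07 to 2.10 with none called, beside 0% of all tested probe sets called in either direction. The slopes were not called different between genotypes (limma adjusted p 0.365 to 0.748, beside 0.0266% of all tested probe sets). As for testis markers, the 4 WT calls are not separate results. No WT slope was called with arrays centred on their medians or scaled to the hybridisation controls, and 2 were called without the ZT44 array. Markers of fat body, testis and midgut are mixed in 1 RNA pool, in which fewer cells of a type and less RNA per cell cannot be told apart, and the part of each tissue in the protease levels was not tested.

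Other proteases and a few digestive enzymes were high and low on the same arrays. Over all 36 arrays, with genotype means removed, the genes most like the 10 proteases were CG34026, CG6295, Jon99Ci, Phae2 and Jon65Aiv, with median correlations of 0.784, 0.778, 0.761, 0.753 and 0.752 among 8514 genes compared. CG6295 encodes a lipase of the pancreatic type, and Phae2 encodes another serine protease. Against the 4 bright proteases alone, 13 of 8514 genes had a median correlation above 0.8 in both genotypes, which is 0.153% of them. Besides those 5 genes, this set held yip7, a serine protease, CG12374, a carboxypeptidase, and CG10910, CG10912, CG4363, CG4377, CG4734 and CG5107. The set was chosen after its correlations were seen. None of the 13 was called different in level between genotypes, beside 39.2% higher and 17.7% lower in dnClk over all tested probe sets. None was called rhythmic in WT, beside 0.648%. Their standard deviations in WT lay between 0.69 for Phae2 and 1.44 for CG6295, so missed calls do not show equal levels.

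The list of other Jonah and trypsin family proteases held 35 genes, of which 30 were named on the array and 5 were tested. None of the 5 was called different in level (limma adjusted p 0.281 to 0.883), beside 39.2% higher and 17.7% lower in dnClk over all tested probe sets. Their median correlation with the 4 bright proteases was 0.885 in dnClk and 0.900 in WT. CG18180 joined the block at 0.771 in dnClk and 0.916 in WT, whereas CG16749 did not, at -0.42 in dnClk and -0.48 in WT. yip7 ranged between 20.6 and 582.6 in dnClk arrays and between 39.2 and 1015 in WT arrays.

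Among 17 other digestive enzymes tested, 3 were called higher and 5 lower in dnClk, beside 39.2% higher and 17.7% lower over all tested probe sets, and these calls carry the same dependence on scaling as above. LysX, a lysozyme gene, was called higher, with intensities of 563.5 to 1825.4 in dnClk arrays and 0.6 to 30.7 in WT arrays. LysP, another lysozyme gene, was called lower, with 0.6 to 85.8 in dnClk arrays and 959.1 to 3035.4 in WT arrays. No fold is given for these 2 genes, since 1 genotype lay near the floor. Mal-B1 and Mal-B2, maltase genes, were 12.3-fold and 6.28-fold lower in dnClk. These 4 had low median correlations with the proteases, of 0.11 to 0.24 in dnClk and -0.37 to 0.29 in WT. For LysX in WT and LysP in dnClk the floor limits what these values show. Mal-A1 and Mal-A6, maltase genes of another cluster, followed the proteases, at 0.929 and 0.856 in dnClk and at 0.731 and 0.765 in WT, and neither was called different in level. Mal-A8 correlated at 0.830 in dnClk and 0.649 in WT and was not called in level. Mal-A5 did not follow the proteases, at -0.25 in dnClk and -0.43 in WT. It was called higher in dnClk, by 0.62 on the log2 scale (limma adjusted p = 3.79e-06).

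**Figure D5:**
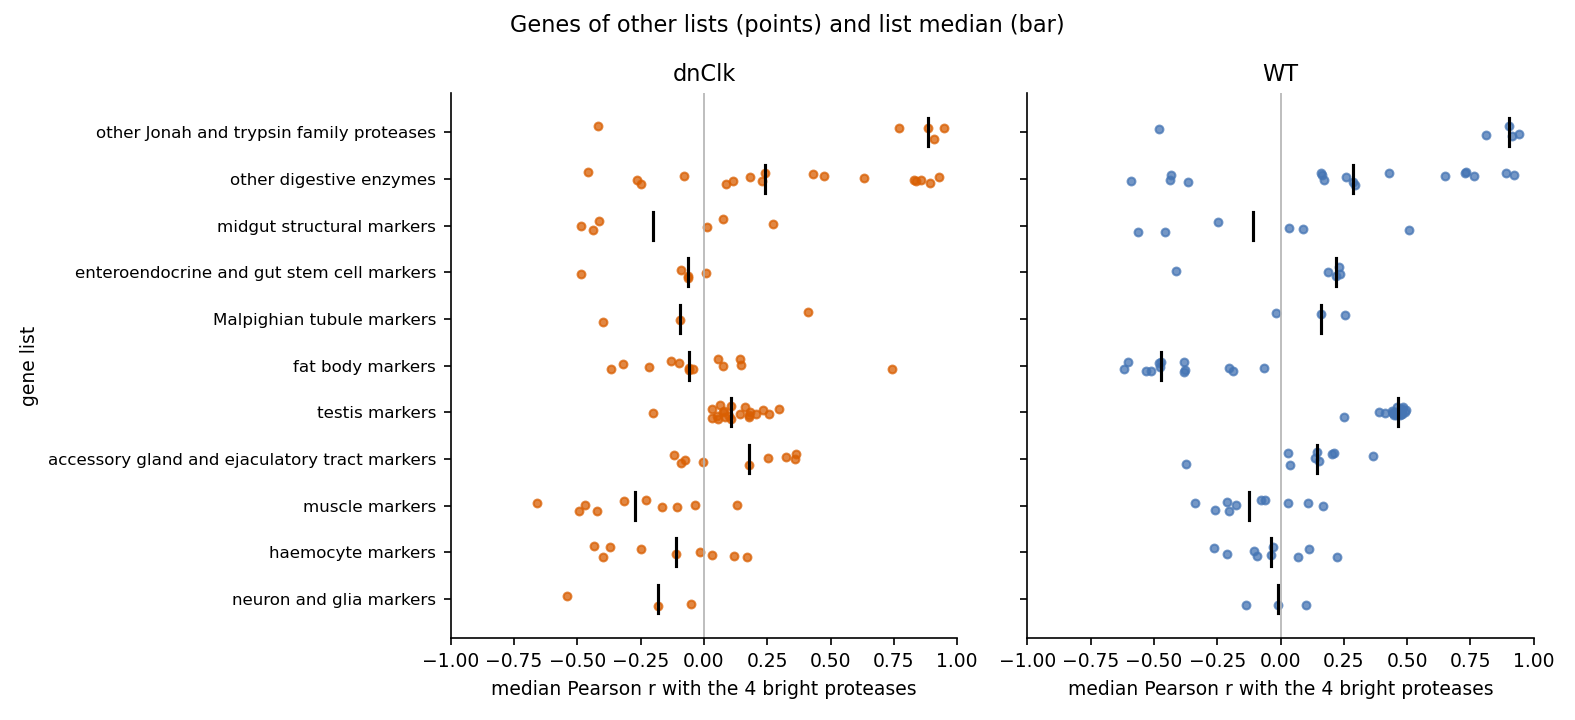
Median Pearson correlation of each tested gene of 11 other lists with Jon65Aiii, Jon74E, alphaTry and betaTry, over dnClk arrays (left, orange) and WT arrays (right, blue); a point is a gene and a black bar is the list's median. Other Jonah and trypsin proteases lie highest, with list medians of 0.885 in dnClk and 0.900 in WT. The midgut structural markers have list medians of -0.20 in dnClk and -0.11 in WT. Single midgut markers lie between -0.49 and 0.27 in dnClk and between -0.56 and 0.51 in WT.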

How the data were processed

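Abdominal fat body RNA was measured on 12 dnClk and 24 WT arrays. The authors deposited MAS5 intensities, per the submitters' processing notes; in each array the mean intensity after trimming 2% at each end was 150, and no detection calls were used here. Intensities were converted to log2(intensity + 16). GEO's platform annotation, with symbols updated through RefSeq gene IDs, gave 1 symbol to 13646 of 18769 probe sets, 402 had several and 4721 none; 183 control probe sets were left out. limma 3.58.1 in R 4.3.3 was fitted to the brightest 60% (11261 probe sets) with Benjamini-Hochberg adjustment over all of them, at 0.05. Models held a 24 h cosine and sine, a genotype term, a day term or a marker mean. The fits were tested on simulated data, in which the test of spread missed most changes. Precision is limited by the number of arrays.

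The members and gene lists were chosen with earlier results of these data known. Named were all members, up to 4 genes per reported list with the smallest adjusted p for level, and the 5 genes most like the members; other genes named were chosen after their values were seen. Slopes on testis and fat body markers were added after seeing the data. Alternatives were other pseudocounts, filters, scalings, covariates and each array left out.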

Additional observations from a re-analysis of the deposited data

How the results depend on the processing

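The counts of proteases called rhythmic, different in rhythm or spread, shifted between days or tied to midgut markers were 0 under all alternatives run. Members higher in dnClk numbered 1 (Jon66Ci) with all probe sets tested. They numbered 4 with scaling to the hybridisation controls, beside 11086 of 11261 tested probe sets. The level differences there reversed to 1.687 for Jon65Aiii, 1.025 for Jon74E, 1.531 for alphaTry and 1.413 for betaTry. Members lower numbered 1 (Jon74E) under median centring, beside 3777 of 11261. With the midgut marker mean as covariate the level differences of Jon65Aiii, Jon74E, alphaTry and betaTry also turned positive, at 0.07, 0.28, 0.58 and 0.91, none called. That mean did not overlap between genotypes, so these values are poorly determined. The cause was not tested. Members tied to testis markers in WT numbered 1 under median centring; with each array left out they numbered 1 to 4 (2 without replicate 5, 10 or 24 of WT, 1 without replicate 19). Members tied to fat body markers in WT numbered 0 with arrays centred on their medians or scaled to the controls, and 2 to 4 with each array left out (2 without WT replicate 23). They numbered 5 with all probe sets tested, with epsilonTry added. The median correlation of the 4 tested proteases lay between 0.868 and 0.919 in dnClk and between 0.906 and 0.947 in WT over all alternatives. Of 1520 recomputed values for single genes, 1478 kept their side of the threshold and 42 did not, and 75 changed sign without a call. Most of the 52 values recomputed were uncalled in the main fit, so this share says little about the called ones. The WT slope of betaTry on testis markers lost its call in 15 of 24 fits with 1 WT array left out. A block for the 12 shared times left the counts of level calls at 0. Single arrays per time point and 6 dim probe sets limit what could be seen.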
